A study of Mus musculus with 66 samples.

Results

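The comparison described here set brain hemisections of homozygous *Rorb* h1/h1 mice (H1) against those of C57BL/6J mice (WT-B6), by RNA-seq of polyadenylated RNA. The members were all brain libraries labelled H1 or WT-B6, which came to 3 H1 and 3 WT-B6 libraries, 6 of the 66 in the series. The h1 allele arose spontaneously on C57BL/6J (line C57BL/6J-Rorb hstp/J), is recessive, and is a large duplication that takes in the first exon used only by the *Rorb1* transcript and lies mostly upstream of the gene. H1 mice lift their hindlimbs high when they walk, and the wild-type mice were of the same strain. All 6 mice were 8.0 weeks old. Each group held 2 females, replicates 1 and 2, and 1 male, replicate 3. Spinal cord libraries carry the same numbers and sexes, and those of 1 genotype and number were taken to come from 1 mouse. The labels do not say whether mice of the groups were littermates. Total expected counts of the 6 brain libraries ran from 32889755 to 54446911, and no pair of libraries held identical values. P-values here measure the spread between these mice.

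*Rorb* encodes RORβ, an orphan nuclear receptor that binds DNA and regulates transcription. In the brain it is best known as a marker of layer 4 of the sensory cortex and of sensory relay nuclei, and in the spinal cord it marks inhibitory interneurons that gate sensory input during walking. The gene makes transcripts from different first exons, *Rorb1* in the brain and spinal cord and *Rorb2* in the retina and pineal gland. A further pair of gene groups runs through the results. Immediate early genes encode transcription factors whose mRNA climbs within minutes of neuronal firing and decays quickly. Chaperones of the endoplasmic reticulum (ER) fold secreted and membrane proteins, and their genes are switched on together by the unfolded protein response through XBP1, ATF6 and PERK.

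*Rorb* was lower in every H1 brain than in every WT-B6 brain. Its level was 52.9, 51.3 and 61.3 counts-per-million (CPM) in WT-B6 replicates 1 to 3 and 36.7, 34.9 and 37.4 CPM in H1 replicates 1 to 3. The groups did not overlap, and the H1 mice lay closer together than the wild-type mice. The mean was 55.1 CPM ± 5.39 (SD, n = 3) in WT-B6 and 36.3 CPM ± 1.25 (SD, n = 3) in H1, a mean 34.1% below the wild type. Scaled for transcript length, the means were 11.9 transcripts-per-million (TPM) in WT-B6 and 7.57 TPM in H1. The log2 fold change was -0.60 with a standard error of 0.07. In the edgeR quasi-likelihood test over 17603 genes this was the smallest p-value of all (5.1e-06), but its adjusted p was 0.084, over the threshold of 0.05. Correlations between same-numbered mice of the groups were weak, at 0.113, 0.119 and 0.198. With the replicate number as a block the adjusted p was 0.01. Within the pairs the log2 ratio of H1 to WT-B6 was -0.53, -0.55 and -0.71. The two-sided exact permutation p on CPM was 0.1, and groups of this size cannot reach a smaller value. In bulk tissue, fewer *Rorb*-expressing cells and less *Rorb* mRNA per cell cannot be told apart.

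**Figure D1:**
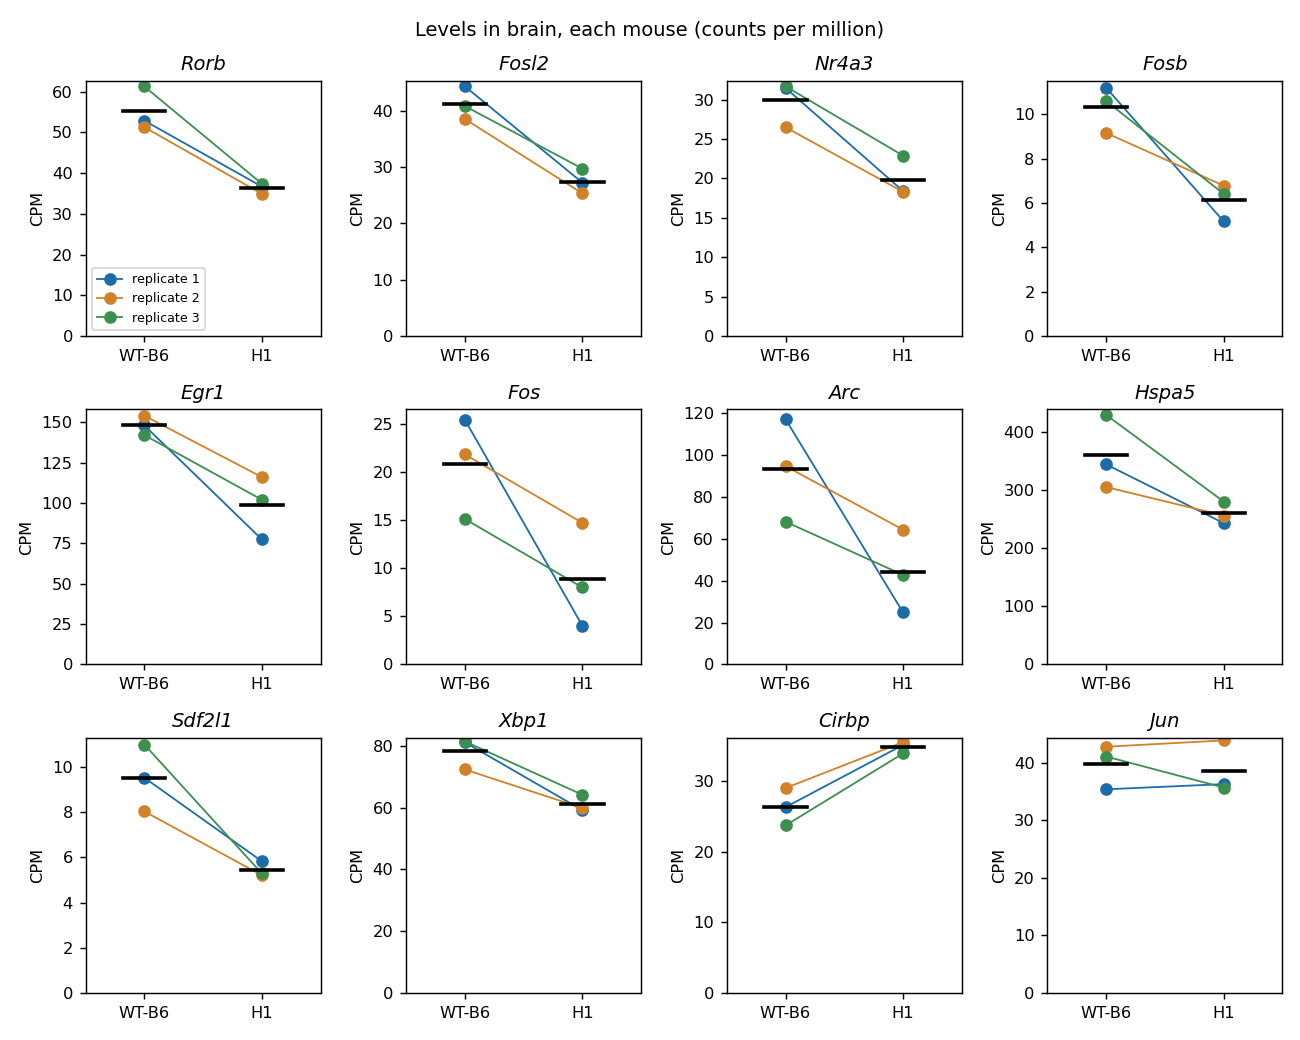
Levels of 12 genes in brain in CPM (vertical axes, from 0) in WT-B6 and H1 mice. Points are mice, lines join mice with the same replicate number, and black bars are group means. *Rorb*, *Fosl2*, *Nr4a3*, *Fosb*, *Egr1*, *Fos*, *Arc*, *Hspa5*, *Sdf2l1* and *Xbp1* were lower in every H1 mouse, *Cirbp* was higher in every H1 mouse, and *Jun* overlapped.

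None of the genes examined next to *Rorb* on chromosome 19 had an unadjusted p under 0.05. *Rorb* lies at chr19:18930609-19111196 (GRCm38), and genes within 0.5 Mb of either end were examined, with *Trpm6*, *Carnmt1* and *D030056L22Rik* of the mapped interval. *Carnmt1*, which encodes a methyltransferase that makes anserine, had a log2 fold change of -0.16 (edgeR, unadjusted p = 0.12) although all H1 mice were below all WT-B6 mice. *Trpm6*, a magnesium channel gene, had 0.21 (unadjusted p = 0.43) and *D030056L22Rik* had -0.01 (unadjusted p = 0.95). *Ostf1*, which encodes an SH3-domain protein that acts in osteoclasts, had 0.09 (unadjusted p = 0.33), and *Nmrk1*, a nicotinamide riboside kinase gene, had -0.06 (unadjusted p = 0.66). The small RNA genes *Gm25437* and *Gm23238* had a count of 0 in all 6 libraries.

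The related receptor gene *Rora* showed no like difference. *Rora*, expressed in Purkinje cells and the thalamus, was 260 CPM ± 13.6 (SD, n = 3) in WT-B6 and 263 CPM ± 8.21 (SD, n = 3) in H1, and its log2 fold change was 0.01 ± 0.06 (SE). The repressors that bind the same DNA element, *Nr1d1* and *Nr1d2*, had log2 fold changes of 0.08 and 0.04, and neither passed an unadjusted p of 0.05.

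Across the genome, the difference between H1 and WT-B6 brains was small beside the spread between mice. With edgeR, 0 of 17603 genes passed an adjusted p of 0.05 (0% called), and 745 (4.23%) had an unadjusted p under 0.05, 380 lower (2.16%) and 365 higher (2.07%) in H1. The median log2 fold change over all tested genes was 0.005. DESeq2 called 17 genes, 0.115% of those it tested, with 16 of them lower in H1. With the replicate block edgeR called 3 genes (0.017%), *Rorb*, *Fosl2* and *Nr4a3*, all lower, and DESeq2 with the block called 27 (0.203%). Without the low-count filter edgeR called 37, of which 34 had also been tested with the filter. With the filter, leaving out WT-B6 replicate 3 or H1 replicate 1 gave 1 call each in edgeR, and neither of those 2 calls was *Rorb*. Whether any gene was called thus depended on the test, and 14 of the 17 genes called by DESeq2 were also among the 20 with the smallest edgeR p-values.

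Of those 20 genes 18 were lower in H1 and 2, *Cirbp* and *Pla2g4e*, were higher. Immediate early genes (22 tested) and their activity-induced effectors (29 tested) gave 8 of the 20. The 2 lists of ER genes (23 and 16 tested) gave 4, *Xbp1* among them. In all, 17603 genes were tested. The lists were chosen with earlier results of these data known, so counts of their members describe them and are not independent support. The 17 genes called by DESeq2 were *Rorb*, the 6 activity-regulated genes *Fosl2*, *Egr1*, *Egr2*, *Fosb*, *Nr4a3* and *Pcsk1*, the 7 ER genes *Sdf2l1*, *Xbp1*, *Hspa5*, *Manf*, *Pdia6*, *Calr* and *Creld2*, and *Cirbp*, *Cdkn1a* and *Dnajb5*. With the block in DESeq2 14 of the 17 were called, and *Egr1*, *Creld2* and *Cdkn1a* were not (adjusted p = 0.084, 0.087 and 0.1).

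Most immediate early transcription factors had a lower level in H1 brains. The number called in edgeR was 0, or 2 with the replicate block, beside 0.017% of all genes. It was 8 without the low-count filter. In unplanned fits with the block and 2 mice a group it was 5, 7 and 6 without replicate 1, 2 or 3 of both groups. Of the 23 genes in the list 22 passed the filter on low counts, and *Fosl1* did not. Their median log2 fold change was -0.50, beside 0.005 over all genes, and 21 of the 22 were below 0, beside 48% of all genes. An unadjusted p under 0.05 with a lower level was found for 13 of the 22, beside 2.16% of all genes, and none was higher at that threshold. In 9 of the 22 all H1 mice were below all WT-B6 mice, beside 5.03% of all genes.

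*Fosl2*, which encodes an AP-1 subunit, was 44.3, 38.5 and 40.8 CPM in WT-B6 and 27.2, 25.3 and 29.7 CPM in H1. Every H1 mouse lay well below the lowest wild-type mouse, and the mean was 33.5% below that of WT-B6. The log2 fold change was -0.59 ± 0.08 (SE), with an adjusted p in edgeR of 0.084 and, with the replicate block, 0.017. *Nr4a3*, which encodes an orphan nuclear receptor, was 31.5, 26.5 and 31.7 CPM in WT-B6 and 18.4, 18.3 and 22.9 CPM in H1, again with no overlap. Its log2 fold change was -0.59 ± 0.10 (SE), with an adjusted p in edgeR of 0.37 and, with the block, 0.037. *Fosb*, another AP-1 subunit, was 11.2, 9.16 and 10.6 CPM in WT-B6 and 5.17, 6.78 and 6.41 CPM in H1. Its log2 fold change was -0.74 ± 0.12 (SE), and DESeq2 gave an adjusted p of 0.0007, while edgeR did not call it. *Nfil3*, a basic leucine zipper repressor, had mice close together in both groups, at 10.8, 11.0 and 10.6 CPM in WT-B6 and 7.88, 8.62 and 7.64 CPM in H1. Its log2 fold change of -0.42 had an adjusted p of 0.64 in edgeR and 0.2 in DESeq2, and neither called it.

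*Fos*, *Egr2* and *Arc* had larger differences and a wider spread. *Fos*, the founding immediate early gene, was 25.4, 21.8 and 15.1 CPM in WT-B6 and 4.00, 14.7 and 7.99 CPM in H1. H1 replicate 2 lay just under WT-B6 replicate 3, and H1 replicate 1 was the lowest of all. The log2 fold change was -1.18 ± 0.33 (SE), and neither edgeR (adjusted p = 1) nor DESeq2 (adjusted p = 1) called it. *Egr2*, a zinc finger factor, was 6.23, 4.67 and 3.80 CPM in WT-B6 and 0.946, 2.50 and 1.75 CPM in H1. Its log2 fold change was -1.45 ± 0.29 (SE), the lowest in the list, with an adjusted p in DESeq2 of 0.0004 and no call in edgeR. *Egr1*, its more abundant relative, was 148, 154 and 142 CPM in WT-B6 and 77.4, 116 and 102 CPM in H1, with a log2 fold change of -0.59. Its adjusted p was 0.51 in edgeR and 0.00013 in DESeq2, and with the block, which ends the DESeq2 call, 0.052 and 0.084. *Npas4*, induced by calcium entry in neurons, was 16.1, 13.6 and 11.2 CPM in WT-B6 and 6.81, 11.2 and 4.87 CPM in H1, with DESeq2 adjusted p-values of 1 and, with the block, 0.0017. *Nr4a1*, an orphan receptor gene, was 56.3, 49.3 and 33.3 CPM in WT-B6 and 19.4, 34.6 and 25.4 CPM in H1, and its groups overlapped. *Jun* and *Jund*, AP-1 subunits with high basal levels, had log2 fold changes of -0.04 and 0.14, and neither passed an unadjusted p of 0.05.

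Promoter sequences of these genes carry binding letters for CREB, the factor that couples calcium and cAMP signals to their transcription. The short cAMP response element TGACG was searched on both strands of the 250 bases upstream of each RefSeq start site (GRCm38.p6). It lay in 13 of the 17 immediate early genes with a promoter sequence, 76.5%, beside 19.8% of 27025 genes. It also lay in 15 of 23 effectors (65.2%), 7 of 14 heat shock genes (50%) and 10 of 21 ER chaperone genes (47.6%). The whole palindrome TGACGTCA, which contains the short form, lay in 1 of the 17, *Maff*, and in 7 of 23 activity-induced effectors, beside 1.77% of all genes. A match is a description of the letters and not a bound site. The windows below, each read 5′ to 3′ on the strand of its gene with the matches in capitals, are shown for 2 immediate early genes, *Fos* (chr12:85473741-85473848, plus strand) and *Junb* (chr8:84978830-84978874, minus strand), and 2 effectors with the palindrome, *Arl4d* (chr11:101665495-101665540, plus strand) and *Scg2* (chr1:79440067-79440114, minus strand).
Fos: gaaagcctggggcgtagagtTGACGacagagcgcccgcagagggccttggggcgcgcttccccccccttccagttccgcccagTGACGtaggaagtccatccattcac
Junb: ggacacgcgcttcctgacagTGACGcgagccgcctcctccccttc
Arl4d: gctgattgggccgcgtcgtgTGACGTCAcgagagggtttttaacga
Scg2: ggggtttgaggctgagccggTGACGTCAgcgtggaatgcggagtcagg

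Activity-induced effectors, the genes that act at synapses and in signaling after the transcription factors, mostly had a lower mean level in H1 as well. All 29 listed genes passed the filter, 27 were below 0, and their median log2 fold change was -0.27. An unadjusted p under 0.05 was found for 15, all lower, beside 2.16% of all genes, and in 10 all H1 mice were below all WT-B6 mice, beside 5.03%. In edgeR 0 members were called, with or without the replicate block, and 4 without the low-count filter. In unplanned fits with the block and 2 mice a group, 3, 2 and 2 were called without replicate 1, 2 or 3 of both groups. In DESeq2 1 was called, beside 0.115% of all genes, and 3 with the block, beside 0.203%. Without H1 replicate 1, 6 of the 29 had an unadjusted p under 0.05, and in one fit of 5 brain groups 8. With the block and without replicate 1 of both groups the median was -0.12. *Arc*, which encodes a synaptic protein that promotes removal of AMPA receptors, was 117, 94.6 and 68.1 CPM in WT-B6 and 24.8, 64.3 and 42.7 CPM in H1. H1 replicate 2 again lay just under WT-B6 replicate 3, and the log2 fold change was -1.07 ± 0.27 (SE) with an adjusted p in edgeR of 0.9, 0.27 with the block and 0.00042 without the low-count filter. With the block it was 0.0012, 0.038 and 0.0098 without replicate 1, 2 or 3 of both groups. *Homer1*, whose short activity-induced form uncouples postsynaptic scaffolds, was 170, 195 and 273 CPM in WT-B6 and 141, 141 and 181 CPM in H1. Within pairs its log2 ratio was -0.28, -0.46 and -0.59, and DESeq2 with the block gave an adjusted p of 2.2e-08, against 1 without it. The block in edgeR did not call *Homer1*. Reads from the short and long forms of *Homer1* were not separated in these gene totals.

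The list also held genes for neuropeptides and their processing. *Pcsk1*, a prohormone convertase gene, was 30.9, 33.5 and 34.4 CPM in WT-B6 and 22.9, 24.1 and 26.8 CPM in H1. Its log2 fold change was -0.42 ± 0.07 (SE), with an adjusted p of 0.4 in edgeR and 0.0048 in DESeq2. *Vgf*, a neuropeptide precursor gene, was 117, 130 and 126 CPM in WT-B6 and 95.4, 99.9 and 114 CPM in H1, with a log2 fold change of -0.27. *Scg2*, which encodes a granin of dense-core vesicles, was 304, 288 and 297 CPM in WT-B6 and 245, 282 and 269 CPM in H1. Its log2 fold change was -0.16, and -0.21 to -0.10 with 1 library left out. *Pcsk1*, *Vgf* and *Scg2* were lower in every H1 mouse. *Gadd45g*, a DNA repair and demethylation adaptor gene, was 6.80, 6.78 and 6.20 CPM in WT-B6 and 4.00, 4.56 and 4.38 CPM in H1. The brain-derived neurotrophic factor gene *Bdnf* had a log2 fold change of -0.21 (unadjusted p = 0.053), with 1 H1 mouse inside the wild-type range, and -0.11 without H1 replicate 1 or -0.33 without H1 replicate 3. *Plk2* and *Ptgs2*, also activity-induced, had log2 fold changes of -0.01 and -0.05.

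**Figure D2:**
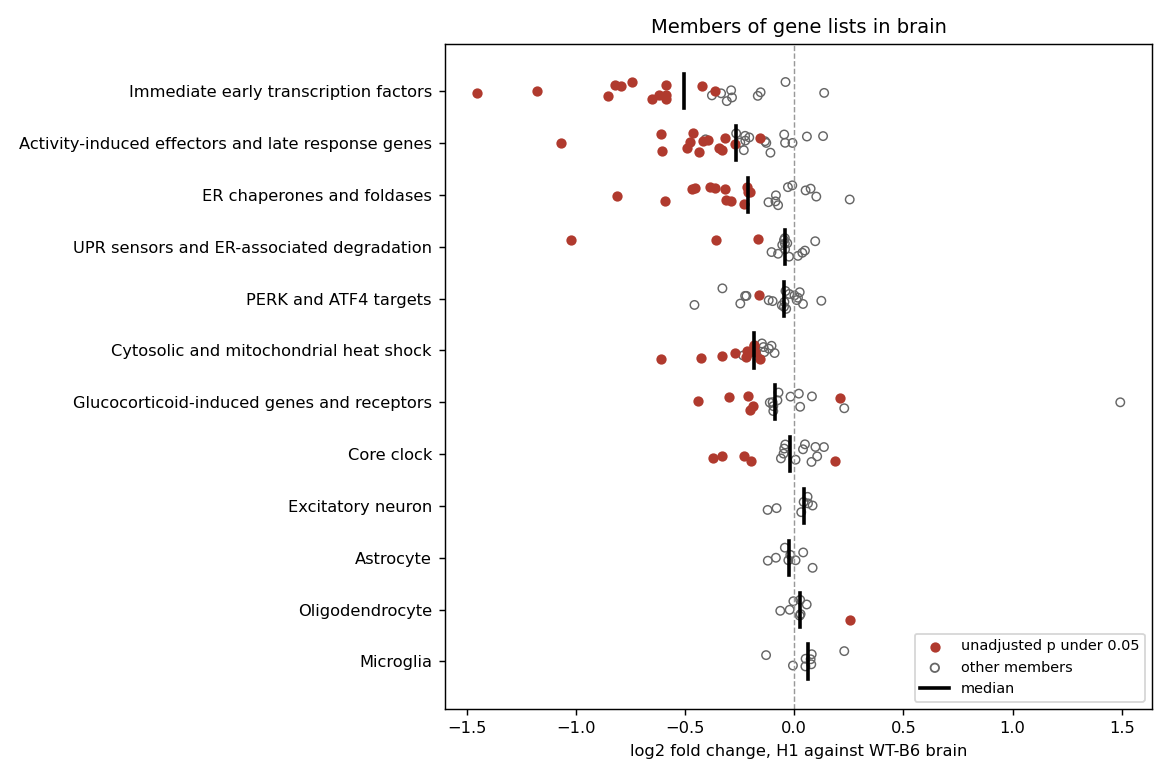
Log2 fold change of H1 against WT-B6 brain (horizontal axis) for the members of 12 gene lists that passed the filter on low counts. Points are genes, filled where the unadjusted edgeR p was under 0.05, and bars are list medians. Immediate early factors had a median of -0.50 and ER chaperones of -0.21, and the lists of excitatory neurons, astrocytes, oligodendrocytes and microglia centered near 0.

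Most ER chaperone and foldase genes were lower in H1 than in WT-B6 in mean level. The number called in edgeR was 0, or 7 without the low-count filter and 1 in one fit of 5 brain groups. In unplanned fits with the block and 2 mice a group it was 3, 8 and 0 without replicate 1, 2 or 3 of both groups. All 23 listed genes passed the filter, 19 were below 0, and the median log2 fold change was -0.21. An unadjusted p under 0.05 was found for 13, all lower, beside 2.16% of all genes, and in 12 all H1 mice were below all WT-B6 mice, beside 5.03%. DESeq2 called 6 of them, beside 0.115% of all genes, and 7 with the replicate block, beside 0.203%. The replicate block in edgeR called 0 of the 23, although 13 had an unadjusted p under 0.05 and the adjusted p of *Hspa5* and *Sdf2l1* was 0.052.

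*Hspa5* encodes BiP, the main chaperone of the ER lumen. It was 344, 305 and 429 CPM in WT-B6 and 243, 256 and 280 CPM in H1, with no overlap. The mean was 27.7% below the wild type, and the log2 fold change was -0.47 ± 0.11 (SE) with an adjusted p of 0.74 in edgeR and 0.0033 in DESeq2. *Sdf2l1*, which encodes a cofactor of BiP, was 9.53, 8.04 and 11.0 CPM in WT-B6 and 5.83, 5.21 and 5.29 CPM in H1. It had the lowest log2 fold change of the list, -0.81 ± 0.13 (SE), with an adjusted p of 0.27 in edgeR and 0.00033 in DESeq2. *Manf*, a secreted factor of stressed cells, was 44.7, 40.2 and 53.3 CPM in WT-B6 and 32.6, 34.4 and 33.8 CPM in H1. *Creld2*, another secreted ER stress gene, was 13.2, 9.77 and 14.2 CPM in WT-B6 and 7.85, 8.19 and 8.60 CPM in H1. In each of these genes WT-B6 replicate 3 was the highest of the 6 mice and the H1 mice lay close together.

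The abundant lectin chaperone and the disulfide isomerases varied within the list. *Calr*, which encodes calreticulin, was 351, 323 and 399 CPM in WT-B6 and 283, 281 and 298 CPM in H1. Its log2 fold change was -0.32, with an adjusted p of 0.8 in edgeR, 0.079 with the block and 0.025 in DESeq2. *Canx*, its membrane-bound partner calnexin, was 413, 403 and 457 CPM in WT-B6 and 370, 413 and 416 CPM in H1, and its log2 fold change was -0.09 (unadjusted p = 0.24). The isomerase genes *Pdia6*, *Pdia4* and *Pdia3* had log2 fold changes of -0.38, -0.36 and -0.23, each with no overlap between the groups. With 1 library left out these ran from -0.46 to -0.27, -0.48 to -0.24 and -0.28 to -0.15, and that of *Canx* from -0.13 to -0.03. *P4hb*, the most classical isomerase, had -0.03, and the oxidases *Ero1a* and *Ero1b* had -0.01 and -0.12.

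The ER stress response element is the sequence through which ATF6 and XBP1 act with NF-Y. Its letters, CCAAT and CCACG with any 9 bases between them, were searched on both strands and lay within 250 bases upstream of 8 of the 21 ER chaperone genes with a promoter sequence, 38.1%, beside 0.13% of 27025 genes. The 8 were *Hspa5*, *Hsp90b1*, *Calr*, *Canx*, *Pdia6*, *Dnajc3*, *Creld2* and *Ero1b*. Of these, *Canx* and *Ero1b* had log2 fold changes of only -0.09 and -0.12. The windows are shown for 5 of the genes to compare *Canx* with others that were lower in every H1 mouse: *Hspa5* (chr2:34772005-34772063, plus strand), *Pdia6* (chr12:17266471-17266529, plus strand), *Calr* (chr8:84847055-84847113, minus strand), *Creld2* (chr15:88819500-88819558, plus strand) and *Canx* (chr11:50325780-50325838, minus strand). Capitals mark the element, which reads CCAAT first or, on the other strand, CGTGG first.
Hspa5: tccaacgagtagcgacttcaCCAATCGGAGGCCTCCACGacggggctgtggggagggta
Pdia6: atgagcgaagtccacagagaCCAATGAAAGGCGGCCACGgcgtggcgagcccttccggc
Calr: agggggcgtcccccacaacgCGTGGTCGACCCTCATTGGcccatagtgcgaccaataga
Creld2: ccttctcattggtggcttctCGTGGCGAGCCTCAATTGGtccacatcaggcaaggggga
Canx: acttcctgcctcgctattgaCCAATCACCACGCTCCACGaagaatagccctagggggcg

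The upstream sensors of the unfolded protein response and its PERK branch differed little. *Xbp1*, the transcription factor that IRE1 activates by splicing, was 81.2, 72.4 and 81.5 CPM in WT-B6 and 59.2, 59.9 and 64.2 CPM in H1. Its log2 fold change was -0.36 ± 0.06 (SE), with an adjusted p of 0.4 in edgeR, 0.053 with the block and 0.0021 in DESeq2, and spliced reads were not separated. The sensor genes *Ern1*, *Atf6* and *Eif2ak3*, which encode IRE1, ATF6 and PERK, had log2 fold changes of -0.06, -0.02 and -0.04. In the list of 16 sensor and ER-associated degradation genes the median was -0.04, and 3 had an unadjusted p under 0.05, *Xbp1*, *Herpud1* and *Derl3*, all lower, beside 2.16% of all genes. *Derl3*, a retrotranslocation gene at about 1 CPM, was 1.12, 0.764 and 0.914 CPM in WT-B6 and 0.441, 0.390 and 0.536 CPM in H1. Of 20 PERK and ATF4 targets 1, *Atf4* itself, was lower at an unadjusted p under 0.05, and the list median was -0.05. In one fit of 5 brain groups 4 of the 20 were lower at that threshold.

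Heat shock genes of the cytosol and mitochondria were all below 0, most of them by small amounts. The 18 listed genes had a median log2 fold change of -0.18, 11 had an unadjusted p under 0.05, beside 2.16% of all genes lower at that threshold, and in 9 all H1 mice were below all WT-B6 mice, beside 5.03%. *Hspa8*, the constitutive Hsc70 gene, was 1760, 1740 and 1930 CPM in WT-B6 and 1500, 1630 and 1660 CPM in H1, a log2 fold change of -0.18. *Hspa1b*, an inducible Hsp70 gene, was 8.41, 9.34 and 14.2 CPM in WT-B6 and 6.21, 6.34 and 8.46 CPM in H1, with a log2 fold change of -0.61. Its near-identical copy *Hspa1a* had -0.33, and reads may have been divided between them. Without WT-B6 replicate 3 they had -0.34 and -0.20, and without H1 replicate 1 -0.54 and -0.20. *Dnajb5*, a cochaperone gene outside the list, was lower in every H1 mouse, with a log2 fold change of -0.31. Its adjusted p in DESeq2 was 0.038, and edgeR did not call it. In this list the count with an unadjusted p under 0.05 was 4 without WT-B6 replicate 3 and 5 without H1 replicate 1.

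The genes that were higher in H1 included the cold-inducible RNA-binding proteins. *Cirbp*, whose mRNA accumulates on mild cooling and cycles with body temperature, was 26.3, 29.0 and 23.7 CPM in WT-B6 and 35.1, 35.5 and 33.9 CPM in H1. It was 1.32-fold higher in mean, with a log2 fold change of 0.41 ± 0.08 (SE), an adjusted p of 0.5 in edgeR and 0.012 in DESeq2. *Rbm3*, its close relative, was picked after its values were seen, as a call of DESeq2 with the block. It was 49.5, 58.9 and 50.1 CPM in WT-B6 and 63.2, 69.9 and 62.2 CPM in H1, with an adjusted p in that test of 0.015 and of 0.9 in edgeR. *Pla2g4e*, which encodes a phospholipase that makes N-acylphosphatidylethanolamines, was 5.71, 6.15 and 5.65 CPM in WT-B6 and 7.73, 8.56 and 7.92 CPM in H1, with an adjusted p of 0.69. All 3 genes were higher in every H1 mouse than in any wild-type mouse, which held for 4.97% of all genes tested.

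Genes of the clock and of hormone responses differed in both directions. Of 16 core clock genes the light-responsive *Per1* and *Per2*, *Cry1* and *Bhlhe40* were lower at an unadjusted p under 0.05 and *Dbp* was higher, beside 2.16% of all genes lower and 2.07% higher, and the median was -0.02. Without WT-B6 replicate 1 the counts were 1 lower and 0 higher, and in one fit of 5 brain groups 0 and 0. *Per1* was 65.4, 48.1 and 51.1 CPM in WT-B6 and 38.8, 44.1 and 47.6 CPM in H1, and *Bmal1* and *Clock* had log2 fold changes of -0.06 and -0.05. Of 18 glucocorticoid-induced genes and receptors, 5 were lower and 1, the mineralocorticoid receptor gene *Nr3c2*, was higher at that threshold, beside the same shares of all genes. The count lower was 2 without WT-B6 replicate 1 or without H1 replicate 3, and 3 without H1 replicate 1 or in the fit of 5 groups. *Cdkn1a*, which encodes the cell cycle inhibitor p21, was 25.2, 22.4 and 20.8 CPM in WT-B6 and 15.3, 17.2 and 17.8 CPM in H1. Its adjusted p was 0.61 in edgeR and 0.029 in DESeq2, and with the block, which ends the DESeq2 call, 0.23 and 0.1. *Fkbp5*, a direct glucocorticoid receptor target, had a log2 fold change of 0.03. *Dio2*, which activates thyroid hormone in astrocytes, was 112, 95.2 and 122 CPM in WT-B6 and 94.1, 88.4 and 92.9 CPM in H1. Its log2 fold change was -0.26, and -0.35 to -0.17 with 1 library left out. The labels give no hour of collection, and the part of clock genes in the other differences was not tested.

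Markers of cortical layers, cell types and brain regions were compared to describe the makeup of the hemisections. Layer 4 markers had a median of -0.18, with 7 of 8 below 0, beside 48% of all genes. *Whrn* and the mutated gene itself were lower at an unadjusted p under 0.05, beside 2.16% of all genes. With the replicate block, with sex as a covariate or in one fit of 5 brain groups 4 of the 8 were lower. Without the low-count filter 5 were. The layer 4 markers *Rspo1* and *Scnn1a*, at 1.87 to 3.60 CPM, had log2 fold changes of -0.39 (unadjusted p = 0.057 and 0.073). None of the 7 markers of layers 2 and 3 or the 11 of layers 5 and 6 passed that threshold, and their medians were 0.07 and 0.03. Medians were 0.04 for excitatory neurons, -0.02 for inhibitory neurons, -0.02 for astrocytes, 0.03 for oligodendrocytes and 0.06 for microglia. Meningeal fibroblast markers had a median of 0.24, with 3 of 8 higher in H1 at an unadjusted p under 0.05, beside 2.07% of all genes, and blood markers had 0.23, with 1 of 5 higher at that threshold. Of 6 pituitary markers 3 were tested, with a median of -0.69, and *Prl*, the prolactin gene, ran from 0.146 to 12.5 CPM in WT-B6 and from 0.221 to 1.05 CPM in H1, with WT-B6 replicate 2 the highest. Olfactory bulb markers had a median of -0.15, with 5 of 6 below 0 and 1 lower at that threshold. Cerebellar markers had -0.10, with 7 of 9 below 0, and 0 lower at that threshold, or 3 with the replicate block. Medians were 0.06 for striatum, 0.11 for hippocampus, 0.03 for thalamus, -0.02 for hypothalamus and -0.08 for brainstem. The part of all these markers in the other differences was not tested. The summed level of the excitatory neuron markers ran from 2950 to 3580 CPM in WT-B6 and from 3170 to 3660 CPM in H1, and these ranges overlapped.

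H1 replicate 1 stood apart from the other libraries. It had the lowest *Fos*, *Arc* and *Egr1* and the highest collagen, blood and *Malat1* signal of the 6. *Col1a1*, a fibroblast collagen gene, was 50.1 CPM there against 18.8 to 25.5 CPM in the others, the 5 blood markers summed to 367 CPM against 187 to 282 CPM, and *Malat1*, a nuclear RNA, was 9350 CPM against 4200 to 6610 CPM. Without this library the immediate early median was -0.40 with 11 of 22 genes at an unadjusted p under 0.05, and the ER chaperone median was -0.17 with 12 of 23. The effector median was -0.22, and 6 of 29 passed that threshold against 15 with the library in. WT-B6 replicate 3 had the highest ER chaperone and heat shock levels, and without it the ER median was -0.13 with 10 of 23. One identifier without a gene symbol took 8.51% and 8.81% of counts in replicate 1 of WT-B6 and H1, and 3.04% to 4.34% in the other 4 libraries. The part of these differences between libraries in the results was not tested.

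**Figure D3:**
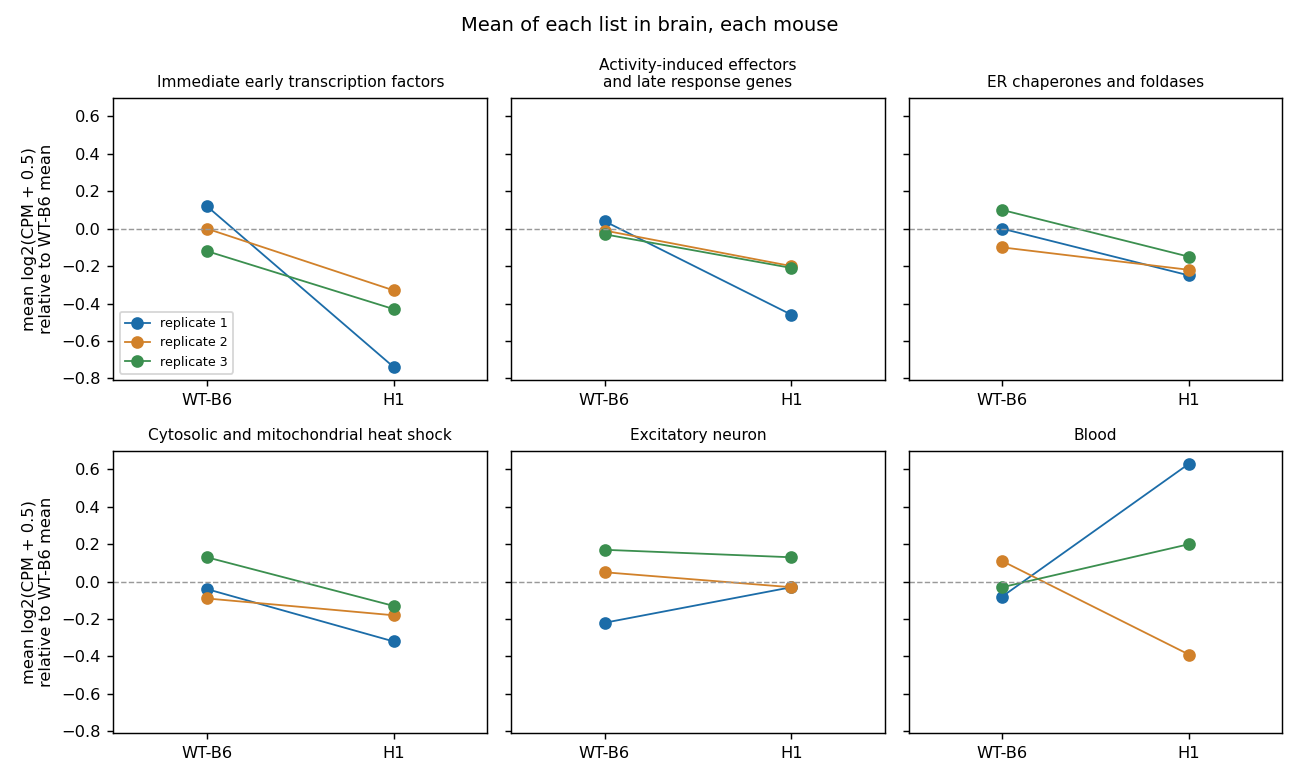
Mean log2(CPM + 0.5) of the tested members of 6 gene lists in each mouse, relative to the WT-B6 mean (vertical axis). Points are mice and lines join the same replicate number. The immediate early mean lay at -0.74, -0.33 and -0.43 in the H1 mice, all below the WT-B6 mice at 0.12, 0.00 and -0.12, and the blood mean was highest in H1 replicate 1 at 0.63.

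Genes with the largest fold changes were mostly near the limit of detection. Among genes with an unadjusted p under 0.01 and no overlap, the lowest 5 were *Gm14122*, an identifier without a symbol, *Angptl7*, *Eps8l1* and *Egr2*. *Gm14122*, a processed pseudogene, had a log2 fold change of -2.49 at a WT-B6 mean of 0.379 CPM. *Eps8l1*, which encodes a regulator of actin, was 5.22, 3.05 and 5.03 CPM in WT-B6 and 1.80, 2.40 and 0.489 CPM in H1. The highest 5 were *Gm37240*, *Gm15583*, an identifier without a symbol, *Gm42566* and *Stx11*, and none passed 2.5 CPM in any mouse. *Stx11*, a syntaxin gene of immune cells, was 0.109, 0.157 and 0.238 CPM in WT-B6 and 0.505, 0.390 and 0.513 CPM in H1. Of genes with more counts, *Opn3*, the encephalopsin gene, was 6.34, 5.97 and 5.26 CPM in WT-B6 and 3.66, 3.90 and 4.15 CPM in H1, with a log2 fold change of -0.58 and an adjusted p of 0.7. *Gm5537*, another pseudogene, had -0.88 with an adjusted p of 0.66.

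Spinal cord libraries of H1 and WT-B6 were compared to ask which differences were larger in the brain. *Rorb* was 37.9 CPM ± 2.16 (SD, n = 3) in WT-B6 and 31.3 CPM ± 0.664 (SD, n = 3) in H1 spinal cord, a log2 fold change of -0.28 with an adjusted p in edgeR of 0.034. The brain minus spinal cord difference of the H1 effect, tested with genotype and number as a block for the mouse, was -0.33 for *Rorb* (unadjusted p = 0.005, adjusted p = 1). In that test edgeR called 0 of 18395 genes (0% called), 662 had an unadjusted p under 0.05 (3.6%), and the smallest adjusted p was 0.73. Without the low-count filter 61 genes were called.

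Immediate early genes had a larger median difference in the brain than in the cord, but none of them was called in the test between tissues. Their median log2 fold change was -0.17 in spinal cord, where 4 of 20 tested were lower at an unadjusted p under 0.05, beside 6.36% of all genes, and 1, *Fos*, was called (log2 fold change -0.52, adjusted p = 0.018), beside 0.289% of all genes. The median difference between tissues was -0.34, and 8 of 22 were lower in brain at an unadjusted p under 0.05, beside 1.94% of all genes. The lowest p-value among them was that of *Npas4*, with a difference of -0.85 (unadjusted p = 0.001). *Arc* had -0.82 (unadjusted p = 0.0043), *Fos* -0.76 (0.02) and *Nr4a3* -0.45 (0.0044). The neuropeptide precursor gene *Vgf* and the convertase gene *Pcsk1* had -0.32 and -0.37 (unadjusted p = 0.0025 and 0.0029). ER chaperones had a median of -0.17 in the cord, with 14 of 23 at an unadjusted p under 0.05 and 1, *Manf*, called (adjusted p = 0.042), and a median difference between tissues of -0.07, with 2 of 23 at that threshold. *Hspa5* had a log2 fold change of -0.42 in spinal cord and a difference of -0.06 (unadjusted p = 0.4), and a difference between the tissues was not shown for it. *Cirbp* had 0.26 in spinal cord and a difference of 0.13 (unadjusted p = 0.16), and *Rbm3* had -0.03 and 0.32 (0.002). The smallest p-value of the tissue test was that of *Pappa*, which encodes a protease that frees insulin-like growth factors. It was 12.1, 9.28 and 10.7 CPM in WT-B6 and 7.16, 8.03 and 5.75 CPM in H1 brain, and its difference between tissues was -0.77 (unadjusted p = 8.9e-05).

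Brains of 3 other high-stepping lines were set against the same WT-B6 mice. The H2 mice (3 females and 1 male) were 7.9 to 9.4 weeks old, the H3 mice (1 female and 3 males) 8.0 to 9.6 weeks and the H4 mice (2 females and 2 males) 8.4 to 8.6 weeks, against 8.0 weeks in H1 and WT-B6. The h2 and h3 alleles arose on an albino B6 strain and h4 on a congenic B6 strain carrying a targeted *Il1r1* allele, so that allele, background and age cannot be told apart in a direct comparison. *Rorb* had a log2 fold change against WT-B6 of -0.60 in H1, -0.91 in H2, -0.05 in H3 and -2.10 in H4, all from the shared 3 controls. In the direct contrast, fitted over 5 brain groups, H1 exceeded H4 by 1.5 ± 0.08 (SE) with an adjusted p of 2.6e-09. H1 exceeded H2 by 0.31 ± 0.08 (SE), which did not pass (adjusted p = 0.53).

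Values of the lists in the 4 lines share the WT-B6 mice, 1 of which, replicate 3, had the highest ER chaperone levels in its group. Median log2 fold changes of the ER list against WT-B6 were -0.21 in H1, -0.25 in H2, -0.33 in H3 and -0.31 in H4. Directly compared, the list had a median of 0.02 between H1 and H2, with 0 of 23 genes at an unadjusted p under 0.05 (5.2% of all genes), and 0.05 between H1 and H4, with 5 of 23 higher in H1 at that threshold (3.32% of all genes). The medians of the immediate early list were -0.50 in H1, 0.04 in H2, -0.17 in H3 and -0.29 in H4. Between H1 and H2 the median was -0.46, and 12 of 22 genes were lower in H1 at an unadjusted p under 0.05, beside 2.62% of all genes. *Junb* had -1.13 (unadjusted p = 0.0017, adjusted p = 0.53) and *Egr1* -0.65 (unadjusted p = 0.014, adjusted p = 0.78), and edgeR called 0 of the 22. Between H1 and H4 the median was -0.10 and 0 of 22 passed an unadjusted p of 0.05, beside 6.02% of all genes. *Fosl2*, called in H1 with the block, had log2 fold changes against the shared WT-B6 mice of -0.59 in H1, -0.36 in H2, -0.43 in H3 and -0.50 in H4, and the direct contrast of H1 with H2 was -0.24 (unadjusted p = 0.22). *Cirbp* had 0.41, 0.34, 0.50 and 0.51 in the same order.

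**Figure D4:**
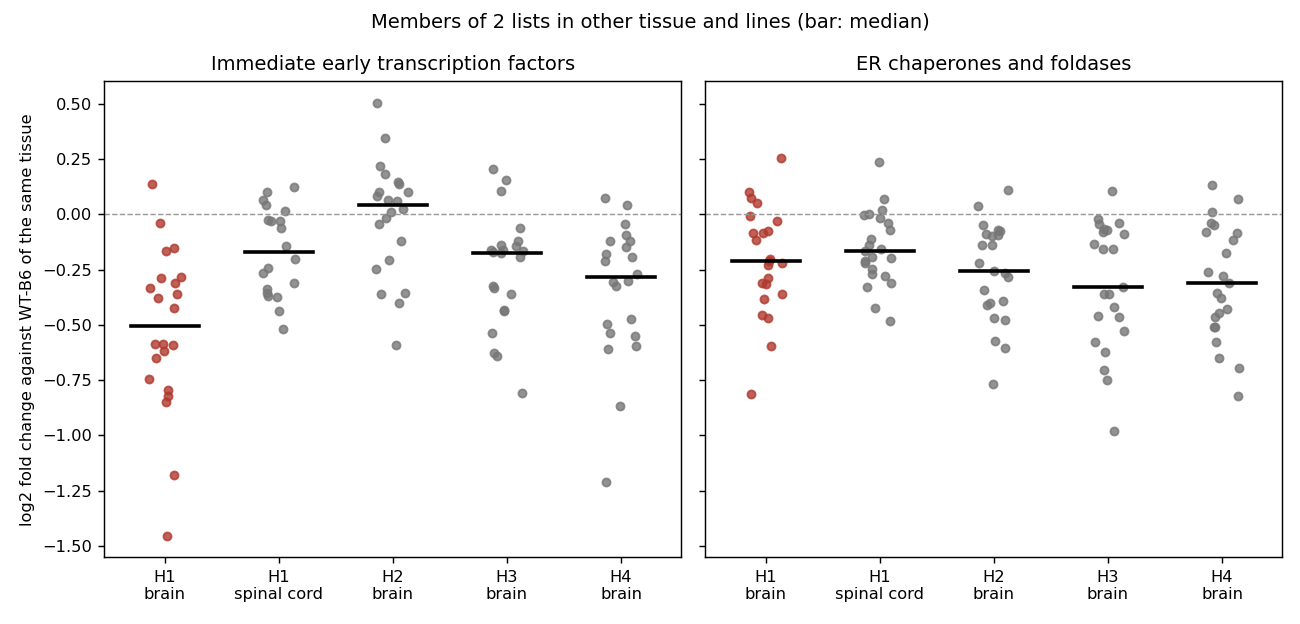
Log2 fold change of immediate early transcription factors (left) and ER chaperones (right) in H1 brain, H1 spinal cord and H2, H3 and H4 brain, each against WT-B6 of the same tissue. Points are genes and bars medians. The brain columns share 3 WT-B6 mice. The immediate early median was -0.50 in H1 brain and 0.04 in H2 brain, and the ER medians lay between -0.33 and -0.17.

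Direct contrasts were fitted against H2 and H4. Between H1 and H2 edgeR called 5 of 18472 genes (0.0271%), 4 lower and 1 higher in H1. *Ndn*, an imprinted gene of neurons, was lower in H1, whose mice lay at 92.3, 115 and 100 CPM, beside 167 CPM ± 15.4 (SD, n = 4) in H2. *Aldh1a2*, *Gjb2* and *Itih2*, which are expressed in the meninges, were lower in H1, and *H2-Q1*, a class I histocompatibility gene, was higher. Each of those 5 genes was near its wild-type level in H1, with log2 fold changes against WT-B6 between -0.13 and 0.30. Between H1 and H4 edgeR called 32 genes (0.173%), 20 higher and 12 lower in H1. After *Rorb* the smallest p-values were those of *Ide*, the insulin-degrading enzyme gene, *Egfl6*, *Dio2* and *Apln*, the apelin gene. *Ide* was 59.7, 61.8 and 59.2 CPM in H1 and 87.3 CPM ± 3.61 (SD, n = 4) in H4, and *Dio2* was higher in H1, beside 55.3 CPM ± 2.32 (SD, n = 4) in H4.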

How the data were processed

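Per the labels and the study's methods, polyadenylated RNA of each tissue was sequenced as paired reads, trimmed with Trim Galore, checked with FastQC, aligned to GRCm38 with STAR and quantified per gene with RSEM. The authors deposited 1 table per library with expected counts, estimated reads per gene, and TPM. The brain was cut sagittally and 1 side used. Expected counts of 45706 identifiers (5.07% of values not whole) were rounded to whole numbers, 41407 were matched to symbols, and the unnamed identifiers stayed in the totals. Genes were filtered with filterByExpr, scaled by TMM and tested with edgeR 4.0.16 (quasi-likelihood, Benjamini-Hochberg adjustment) on the 6 libraries. CPM are TMM-scaled. A prior count of 2 was used in the log2 CPM behind the correlations between mice, and not in the fold changes. DESeq2 1.42.0 and other settings were alternatives. Deviations of same-numbered H1 and WT-B6 mice correlated at 0.113, 0.119 and 0.198 across 17603 genes, every other pairing at 0.055 or less, so the numbers were used as a block beside the main test. Number 3 is also the male, and without X and Y genes the same-numbered correlations were 0.1, 0.102 and 0.136. All of these are weak. The named genes were *Rorb* and its neighbors, list members, the 20 smallest p-values, calls of DESeq2 or of the block, the 5 largest non-overlapping changes each way, and the 5 smallest p-values of each other comparison. *Rbm3*, *Malat1* and *Homer1* with the block were added after their values were seen. Members and lists were chosen with earlier results of these data known. In all, 24 libraries were used and 42 were not used here. Promoters came from RefSeq (GRCm38.p6), with windows inside annotated genes left out.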

Additional observations from a re-analysis of the deposited data

Results flagged for a closer look

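Of the genes that differed between H1 and another mutant line in the direct edgeR contrast, 5 against H2 and 32 against H4, the 5 with the smallest p-values of each are given here. Between H1 and H2 the log2 fold change was -0.71 for *Ndn* (adjusted p = 0.001), -0.72 for *Aldh1a2* (0.0043), -0.65 for *Gjb2* (0.0073), 2.24 for *H2-Q1* (0.03) and -0.84 for *Itih2* (0.039). With 1 library left out at a time *Ndn* stayed called, with a largest adjusted p of 0.022, and the other 4 did not, with largest adjusted p-values of 0.11 (*Aldh1a2*), 0.13 (*Gjb2*), 0.17 (*H2-Q1*) and 0.32 (*Itih2*). The libraries whose removal lost the call were H1 replicates 1 and 2 for *Aldh1a2*, any H1 replicate for *Gjb2*, any H1 replicate or H2 replicate 1 or 2 for *H2-Q1*, and every library but H2 replicate 4 for *Itih2*. Between H1 and H4 it was 1.5 for *Rorb* (adjusted p = 2.6e-09), -0.55 for *Ide* (2.3e-07), 2.20 for *Egfl6* (7e-06), 0.72 for *Dio2* (3.3e-05) and 0.95 for *Apln* (9.5e-05), and these 5 stayed called with any 1 library left out. Allele, strain background and age cannot be told apart in these contrasts.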

How the results depend on the processing

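The number of genes called between H1 and WT-B6 brain depended on the test. Against 0 in edgeR, it was 17 with DESeq2, 27 with DESeq2 and the replicate block, 37 without the low-count filter, 3 with the replicate block, 1 with sex as a covariate, 3 in one fit of 5 brain groups, 0 with DESeq2 size factors, and 0 to 1 with 1 library left out. With the block and a pair left out it was 20 without replicate 1, 31 without replicate 2 and 21 without replicate 3 of both groups. Those fits were unplanned and held 2 mice a group, so their higher counts are not stronger support. *Rorb* passed with DESeq2 (-0.61), DESeq2 with the block (-0.60), no low-count filter (-0.61), the replicate block (-0.60), sex (-0.60), one fit of 5 groups (-0.61), and the block without pair 1 (-0.64), 2 (-0.63) or 3 (-0.54). It did not pass with DESeq2 size factors (adjusted p = 0.094) or with 1 library left out (-0.66 to -0.52, adjusted p = 0.064 to 0.41). The immediate early median ran from -0.57 to -0.40 with 1 library left out and was -0.33 with the block without replicate 1, and the ER median ran from -0.26 to -0.13. Between tissues, 61 genes were called without the low-count filter and 0 to 3 with 1 library left out, with 2 without WT-B6 replicate 2 and 3 without WT-B6 replicate 3. Between H1 and H2, 3 were called from the 2 mutant groups alone, 11 without the low-count filter, and 1 to 5 with 1 library left out. Between H1 and H4, 21 to 33 were called with 1 library left out, the fewest without H1 replicate 1. Genes near 0 changed sign when libraries were left out, namely *Atf6* (-0.08 to 0.03), *D030056L22Rik* (-0.06 to 0.08, and 0.07 with the block without replicate 3), *Ern1* (-0.11 to 0.03), *Ero1a* (-0.02 to 0.01), *Fkbp5* (-0.05 to 0.17), *Jun* (-0.15 to 0.01, and 0.04 with the block without replicate 3), *Nmrk1* (-0.13 to 0.02, and 0.05 with the block without replicate 2), *Nr1d2* (-0.01 to 0.09), *P4hb* (-0.07 to 0.01), *Plk2* (-0.10 to 0.05), *Ptgs2* (-0.27 to 0.08), *Rora* (-0.02 to 0.05) and *Trpm6* (-0.03 to 0.38). The cause of these changes was not tested. Scaling, filter, test and covariate changed no sign among the genes printed with a fold change. Some other list members near 0 did change sign. Of 16 core clock genes 9 were below 0 without the low-count filter, against 8 with it. With 3 mice a group, and few counts for genes under 1 CPM, small differences may have gone uncalled.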
